A study of Mus musculus with 8 samples.

Results

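Calcium handling genes were followed in mouse bone marrow cells that were cultured with or without the osteoclast-inducing cytokine RANKL. The set comprised 10 genes chosen by symbol: the store-operated entry genes Orai1, Stim1 and Stim2, the entry channels Trpv2 and Trpv4, the release channels Itpr1, Itpr2 and Itpr3, and the calcium pumps Atp2a2 and Atp2b1. Of these, 8 had a transcript cluster with a single gene symbol, 1 cluster each, among the 19505 genes that could be named, and all 8 were among the 10871 genes tested. Itpr1 and Itpr3 were not analysed here.

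The cells came from C57BL6/J mice, and each group was 1 Affymetrix array. PSS1-LMS and PSS1-WT cultures received M-CSF and RANKL and, 1 day later, a retrovirus carrying mutant or wild-type PSS1, an enzyme that makes phosphatidylserine. M-CSF+RANKL cultures received the same 2 factors, and M-CSF cultures received M-CSF without RANKL. The dose of M-CSF was 50 ng/ml and that of RANKL 100 ng/ml. RNA was taken on days 3 and 6 of treatment, which gave 8 arrays, 6 of them with RANKL. The labels do not say whether cultures without PSS1 virus received an empty vector, which mutation PSS1-LMS carries, from which species the insert came, or how many mice were pooled.

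M-CSF keeps bone marrow precursors alive and drives them towards macrophages, and RANKL turns such precursors into bone-resorbing osteoclasts. In this lineage RANKL sets off oscillations of cytosolic calcium that activate the transcription factor NFATc1. Calcium leaves the endoplasmic reticulum through inositol trisphosphate receptors. The emptied store is sensed by STIM proteins, which open ORAI channels in the plasma membrane, and pumps return calcium to the store or expel it from the cell.

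Ptdss1, the mouse gene for PSS1, had log2 signals of 17.50 to 18.91 on the 4 PSS1 arrays and 9.56 to 10.36 on the other 4. All 10 osteoclast marker genes passed the test as higher in M-CSF+RANKL than in M-CSF, and their summed level was 21.58 to 21.77 on the log2 scale with RANKL, against 7.50 to 12.61 in M-CSF. Of 8 tested macrophage markers 7 were lower, with summed levels of 16.39 to 16.76 with RANKL, against 18.01 to 19.21 in M-CSF. Of 9 neutrophil markers 2 were lower, with summed levels of 8.29 to 14.72 against 11.79 to 14.86, and Camp was within background on every array. Of 5 megakaryocyte and mast cell markers 3 were tested and 1 was lower, with summed levels of 7.58 to 8.24 against 14.81 to 15.03, and Gp9, Cpa3 and Mcpt8 were within background. Every B cell marker (4), T and NK cell marker (4) and stromal marker (5) with a cluster was within background on all arrays, as was Klf1 of 2 erythroid markers. The part of these other cell types in the results below was not tested, and in such bulk samples fewer cells of a type and less RNA per cell cannot be told apart.

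Values are log2 signals as deposited. A signal at or under the brightest of 23 background probe sets of its array is called within background. That limit was 7.13 on the M-CSF array of day 6, apart from the 5.54 to 6.29 on the other 7 arrays. Only 1 of the 23 sets reached 5.74 on the M-CSF array of day 6, so its limit rests on a single set. Each M-CSF result of day 6 rests on that array, and without it the day 6 differences could not be fitted. Of the 8 genes, 6 were above background on all 8 arrays, while Stim1 and Trpv4 were within background on all 8. A gene passed a test when its Benjamini-Hochberg adjusted limma p over all 10871 genes was under 0.05. Levels are compared between cultures of 1 gene, not between genes.

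**Figure D1:**
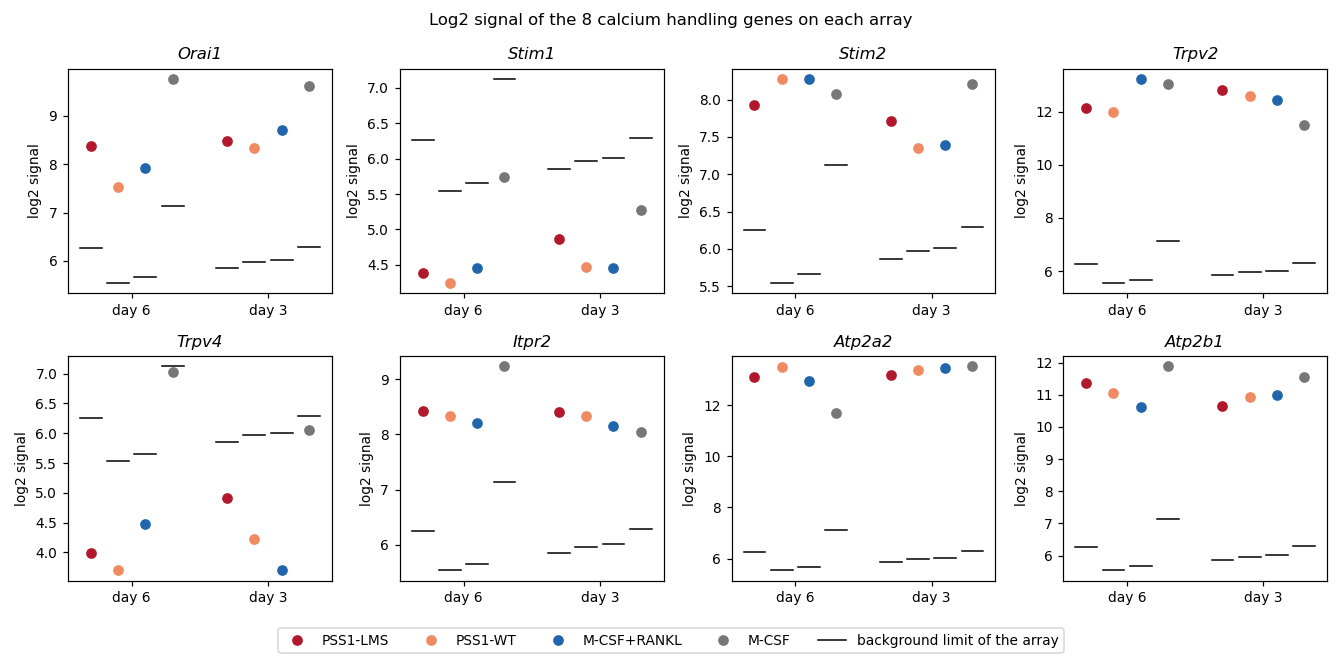
Log2 signal (vertical axis) of each of the 8 genes on the 8 arrays, with 1 point per array, coloured by culture and placed by day; the short lines mark the background limit of each array. Orai1 and Atp2b1 lie lower on every array with RANKL than on both M-CSF arrays, Atp2a2 and Itpr2 stand apart in M-CSF on day 6, and Stim1 and Trpv4 lie under the lines.

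The RANKL comparison asked whether transcripts of the calcium genes differed between bone marrow cells cultured with and without the osteoclast-inducing factor. In M-CSF+RANKL minus M-CSF, averaged over both days, 3 of the 8 genes were past the threshold, all of them lower, and 1 of those 3, Orai1, was above background. Over all tested genes 26.4% were past it, 12.4% as lower and 14.1% as higher. The median log2 difference of the 8 genes was -0.69, against 0.03 over all tested genes, and that of the 6 genes above background was -0.38. All 6 arrays with RANKL were lower than both M-CSF arrays for 4 of the 8 genes, namely Orai1, Stim1, Trpv4 and Atp2b1, and for 20.8% of all tested genes; they were higher for 0 of the 8 and for 22.2% of all. Of the 6 genes above background, 2 were lower in this way, Orai1 and Atp2b1.

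Day by day, the 3 cultures with RANKL were set together against M-CSF. In that fit the cultures with RANKL stand for one another, and M-CSF is a single array per day that is assumed to vary like them, so all the spread comes from the cultures with RANKL. On day 6, 1 of the 8 genes was higher (Atp2a2) and 5 were lower (Orai1, Itpr2, Atp2b1 and, within background, Stim1 and Trpv4), where 43.6% of all tested genes were called, 22.0% as higher and 21.6% as lower. On day 3, 1 was higher (Trpv2) and 2 were lower (Orai1 and, within background, Trpv4), where 42.4% of all were called, 22.3% as higher and 20.2% as lower. No test set the 8 genes against the rest.

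**Figure D2:**
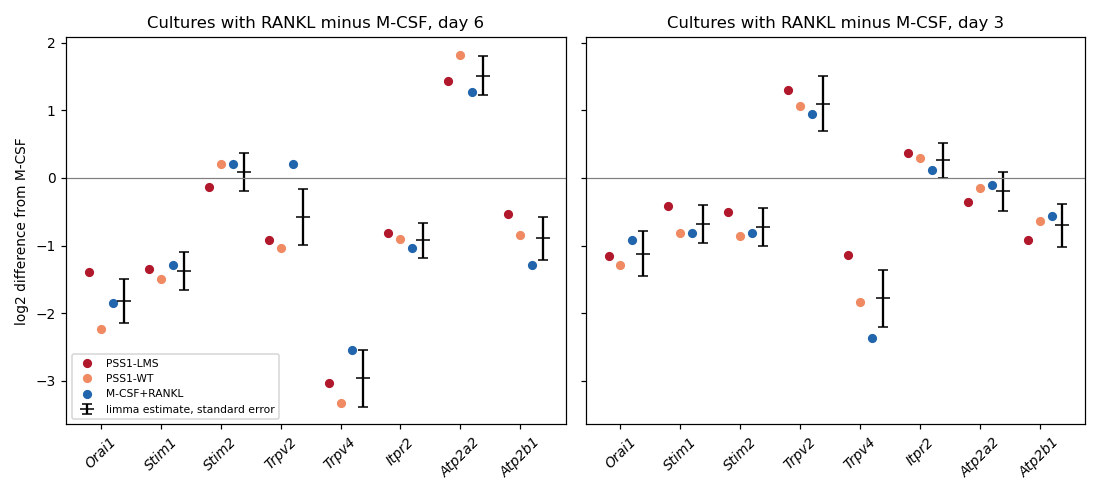
Log2 difference from the M-CSF array of the same day (vertical axis) for each of the 8 genes, day 6 on the left and day 3 on the right; points are single arrays and bars the limma estimate with its standard error. Stim1 and Trpv4 are within background on all arrays. Orai1 is under 0 in all 3 cultures on both days, Atp2a2 is over 0 on day 6 and close to it on day 3, and Trpv2 splits on day 6.

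Orai1, the pore of the store-operated calcium channel, was lower in every culture with RANKL. On day 6 its log2 signal was 8.37 in PSS1-LMS, 7.53 in PSS1-WT and 7.91 in M-CSF+RANKL, against 9.76 in M-CSF. On day 3 it was 8.48 in PSS1-LMS, 8.33 in PSS1-WT and 8.71 in M-CSF+RANKL, against 9.62 in M-CSF. The 6 arrays with RANKL did not overlap the M-CSF arrays, which differed by 0.14 between days. M-CSF+RANKL minus M-CSF over both days was -1.38 ± 0.35 (limma standard error, adjusted p = 0.0221), a signal 2.6-fold lower. The day 6 difference of all cultures with RANKL was -1.82 ± 0.33 (adjusted p = 0.000519, limma), or 3.54-fold lower, and the day 3 difference -1.12 ± 0.33 (adjusted p = 0.0147, limma), or 2.17-fold lower. The change of the difference between the days, -0.71 ± 0.46, did not pass (adjusted p = 0.313, limma). Both single-day calls held in all 14 alternatives run, none of which left out the M-CSF array of that day. The call over both days was lost on omission of the day 6 array of M-CSF+RANKL (-1.11) or its day 3 array (-1.65).

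Stim1, the principal calcium sensor of the endoplasmic reticulum, was not measured above background. Its day 6 signals were 4.39 in PSS1-LMS, 4.24 in PSS1-WT and 4.45 in M-CSF+RANKL, against 5.74 in M-CSF. On day 3 they were 4.86, 4.47 and 4.46 in the same 3 cultures with RANKL, against 5.28 in M-CSF. Between 10 and 12 of the 23 background probe sets were as bright on each array with RANKL, against 1 on the M-CSF array of day 6 and 4 on that of day 3. The limma fits gave adjusted p = 0.00118 on day 6, 0.0634 on day 3 and 0.0473 over both days, the last past the threshold in 5 of 16 alternatives. Since both sides were within background, no size of a difference is given and no change of Stim1 is read from these values.

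Stim2, the second STIM protein, which responds to smaller drops of store calcium, passed no RANKL test in the main fits. Its day 6 signal was 7.93 in PSS1-LMS, 8.28 in PSS1-WT and 8.28 in M-CSF+RANKL, against 8.07 in M-CSF. On day 3 it was 7.71 in PSS1-LMS, 7.35 in PSS1-WT and 7.39 in M-CSF+RANKL, against 8.21 in M-CSF. The cultures with RANKL thus lay under M-CSF on day 3 and on both sides of it on day 6. The day 6 difference was 0.09 ± 0.28 (adjusted p = 0.829, limma), and the day 3 difference of -0.73 ± 0.28 missed the threshold (adjusted p = 0.0547, limma), passing it in 3 of 14 alternatives. Over both days M-CSF+RANKL minus M-CSF was -0.31 ± 0.36 (adjusted p = 0.588, limma). Within the cultures with RANKL, Stim2 was higher on day 6 than on day 3 in all 3, by 0.22 in PSS1-LMS, 0.93 in PSS1-WT and 0.88 in M-CSF+RANKL. That difference did not pass (0.68 ± 0.21, adjusted p = 0.102, limma), and 15.9% of all tested genes were higher on day 6 in all 3.

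Trpv2, a cation channel of the vanilloid family that is abundant in macrophages, was higher with RANKL on day 3. Its day 3 signal was 12.81 in PSS1-LMS, 12.58 in PSS1-WT and 12.45 in M-CSF+RANKL, against 11.50 in M-CSF. On day 6 it was 12.13 in PSS1-LMS, 12.00 in PSS1-WT and 13.24 in M-CSF+RANKL, against 13.04 in M-CSF. All 3 cultures with RANKL were above M-CSF on day 3; on day 6 only M-CSF+RANKL was. The day 3 difference was 1.10 ± 0.41 (adjusted p = 0.0444, limma), 2.15-fold, but its call was lost in 5 of 14 alternatives, 3 of them without the day 3 array of PSS1-LMS (1.01, adjusted p = 0.0954), PSS1-WT (1.12, adjusted p = 0.071) or M-CSF+RANKL (1.19, adjusted p = 0.061), each by limma. The day 6 difference did not pass (-0.58 ± 0.41, adjusted p = 0.285, limma); with the day 6 array of M-CSF+RANKL omitted it did (-0.97, adjusted p = 0.0165, limma). The interaction of RANKL with day was -1.68 ± 0.58, which did not pass (adjusted p = 0.0584, limma) but did in 3 of 13 alternatives, 1 of them with the day 6 M-CSF+RANKL array omitted (-2.08, adjusted p = 0.00392, limma). Over both days M-CSF+RANKL minus M-CSF was 0.57 ± 0.55 (adjusted p = 0.503, limma), passing without the day 6 array of M-CSF (1.42, adjusted p = 0.0121, limma) and turning in sign without its day 3 array (-0.27, adjusted p = 0.652, limma). The 2 M-CSF arrays were 1.53 apart, with day 6 the higher.

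Trpv4, a mechanically and osmotically gated calcium channel described in osteoclasts, was within background on all arrays. Its day 6 signals were 3.99 in PSS1-LMS, 3.70 in PSS1-WT and 4.48 in M-CSF+RANKL, against 7.02 in M-CSF. On day 3 they were 4.92 in PSS1-LMS, 4.22 in PSS1-WT and 3.70 in M-CSF+RANKL, against 6.06 in M-CSF. Between 9 and 12 of the 23 background sets were as bright on the arrays with RANKL, against 1 on each M-CSF array, so the M-CSF signals sat near the top of the background range. The limma fits gave adjusted p = 6.77e-05 on day 6, 0.0038 on day 3 and 0.00878 over both days. The call over both days was lost with the day 3 array of M-CSF+RANKL omitted. With values raised to the background limits, every Trpv4 value became the limit of its array, so calls under that setting say nothing about Trpv4. No size of a difference is given and no change of Trpv4 is read from these values.

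Itpr2, an inositol trisphosphate receptor that releases calcium from the endoplasmic reticulum, was lower with RANKL on day 6 and did not pass on day 3. Its day 6 signal was 8.43 in PSS1-LMS, 8.34 in PSS1-WT and 8.20 in M-CSF+RANKL, against 9.24 in M-CSF. On day 3 it was 8.41 in PSS1-LMS, 8.34 in PSS1-WT and 8.16 in M-CSF+RANKL, against 8.05 in M-CSF. The 6 arrays with RANKL spanned 0.27, whereas the 2 M-CSF arrays were 1.20 apart. No alternative for the day 6 difference left out the M-CSF array of day 6. The difference was -0.92 ± 0.26 on day 6 (adjusted p = 0.0126, limma), 1.89-fold lower, and held in all 14 alternatives. On day 3 it was 0.26 ± 0.26 (adjusted p = 0.472, limma). Over both days M-CSF+RANKL minus M-CSF was -0.46 ± 0.38 (adjusted p = 0.424, limma), passing without the day 3 array of M-CSF (-1.05, adjusted p = 0.0134, limma) and turning in sign without its day 6 array (0.13, adjusted p = 0.783, limma). The RANKL difference itself changed between days by -1.18 ± 0.37 (adjusted p = 0.0424, limma), a call that 19.7% of tested genes had, 11.3% with a negative sign and 8.49% with a positive one; it was lost in 7 of 13 alternatives, with adjusted p up to 0.084. Of the array omissions, it was lost without the day 3 array of PSS1-LMS (0.084), PSS1-WT (0.0808) or M-CSF+RANKL (0.05) and without the day 6 array of PSS1-LMS (0.0501) or M-CSF+RANKL (0.0572), all adjusted limma p-values.

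Atp2a2, the SERCA pump that refills the endoplasmic reticulum, was higher with RANKL on day 6 and not on day 3. Its day 6 signal was 13.11 in PSS1-LMS, 13.50 in PSS1-WT and 12.94 in M-CSF+RANKL, against 11.68 in M-CSF. On day 3 it was 13.19 in PSS1-LMS, 13.38 in PSS1-WT and 13.43 in M-CSF+RANKL, against 13.53 in M-CSF. The M-CSF array of day 6 stood under all 7 others, whose signals lay between 12.94 and 13.53. The difference was 1.51 ± 0.29 on day 6 (adjusted p = 0.000854, limma), 2.84-fold, and -0.20 ± 0.29 on day 3 (adjusted p = 0.622, limma). The 2 M-CSF arrays were 1.85 apart. The change of the RANKL difference between days was 1.71 ± 0.41 (adjusted p = 0.0117, limma). The day 6 call and this change held in every alternative run, 14 and 13 of them, but none of these left out the M-CSF array of day 6. Over both days M-CSF+RANKL minus M-CSF was 0.58 ± 0.48 and did not pass (adjusted p = 0.429, limma), passing without the day 3 array of M-CSF (1.43, adjusted p = 0.00226, limma) and turning in sign without its day 6 array (-0.27, adjusted p = 0.546, limma).

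Atp2b1, a plasma membrane pump that expels calcium from the cell, was lower on all arrays with RANKL than on both M-CSF arrays. Its day 6 signal was 11.37 in PSS1-LMS, 11.06 in PSS1-WT and 10.61 in M-CSF+RANKL, against 11.90 in M-CSF. On day 3 it was 10.65 in PSS1-LMS, 10.93 in PSS1-WT and 11.00 in M-CSF+RANKL, against 11.56 in M-CSF. The highest array with RANKL was thus close to the lower M-CSF array. The day 6 difference passed (-0.89 ± 0.32, adjusted p = 0.0373, limma; 1.85-fold lower), and the day 3 difference did not (-0.70 ± 0.32, adjusted p = 0.0955, limma). The day 6 call was lost in 5 of 14 alternatives, among them those without the day 6 array of M-CSF+RANKL (-0.68, adjusted p = 0.0818) or PSS1-WT (adjusted p = 0.0523) and the day 3 array of PSS1-WT (adjusted p = 0.0525), by limma. Over both days the M-CSF+RANKL minus M-CSF difference of -0.92 ± 0.34 missed the threshold (adjusted p = 0.0866, limma, 95% interval -1.72 to -0.13). The threshold was passed in 2 of 17 alternatives, of which the first left out the M-CSF array of day 3 (-1.02). The second pooled the PSS1 cultures with M-CSF+RANKL against M-CSF, with day as an additive term (-0.79, adjusted p = 0.0253, limma). That is a different contrast, in which the PSS1 cultures stand in for replicates.

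The day 6 minus day 3 fit within M-CSF sets 1 array against 1, with all of its spread taken from the cultures with RANKL, and is given only as run. Its adjusted limma p was 0.00257 for Atp2a2 (log2 difference -1.85), 0.0178 for Itpr2 (1.20) and 0.0422 for Trpv2 (1.53), and over 0.05 for the other 5 genes. It called 23.9% of all tested genes, 12.6% as higher and 11.4% as lower, and no change in M-CSF is read from it.

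Within the 3 cultures with RANKL, the day 6 minus day 3 comparison called 0 of the 8 genes by limma, with 2 at an unadjusted p under 0.05 (Stim2 and Orai1), where 3.38% of all tested genes were called. Orai1 was lower on day 6 by 0.11 in PSS1-LMS, 0.80 in PSS1-WT and 0.80 in M-CSF+RANKL (log2 differences -0.11, -0.80 and -0.80), and its mean change of -0.57 ± 0.22 did not pass (adjusted p = 0.181, limma). Of all tested genes 22.2% were lower on day 6 in all 3 of these cultures. The other 6 genes had adjusted limma p-values of 0.617 to 0.971.

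The PSS1 comparisons asked whether wild-type or mutant PSS1 altered these transcripts under RANKL. None of the 8 genes passed in any of the 3 comparisons, and 0 had an unadjusted limma p under 0.05. Over all genes the share past the threshold was 0.175% for PSS1-LMS minus M-CSF+RANKL, 0.00920% for PSS1-WT minus M-CSF+RANKL and 0% for PSS1-LMS minus PSS1-WT, where limma gave 773 genes at an unadjusted p under 0.05. Both comparisons with M-CSF+RANKL share its arrays. The 95% intervals of the 8 genes in the 3 comparisons lay within -1.24 and 1.21, and those of Trpv2, Trpv4 and Orai1 reached past 1 log2 unit in at least 1 comparison.

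Orai1 was higher in PSS1-LMS than in PSS1-WT on both days, by 0.83 on day 6 and 0.14 on day 3; the mean of 0.49 ± 0.26 did not pass (adjusted p = 0.749, limma; 95% interval -0.07 to 1.05). Trpv2 differed most from M-CSF+RANKL on day 6, by -1.11 in PSS1-LMS (2.16-fold lower) and -1.24 in PSS1-WT (2.37-fold lower). On day 3 the Trpv2 differences were 0.36 in PSS1-LMS and 0.13 in PSS1-WT. Single-day differences rest on 1 array a side and were not tested; on day 6, 2.86% of tested genes in PSS1-LMS and 3.92% in PSS1-WT differed 2-fold or more from M-CSF+RANKL, and on day 3 the shares were 2.06% in PSS1-LMS and 1.46% in PSS1-WT. The Trpv2 means over both days were -0.38 ± 0.32 in PSS1-LMS (adjusted p = 0.966, limma) and -0.56 ± 0.32 in PSS1-WT (adjusted p = 0.736, limma). Itpr2 lay above M-CSF+RANKL by 0.23 on day 6 and 0.25 on day 3 in PSS1-LMS, and by 0.14 and 0.18 on those days in PSS1-WT. The means of 0.24 ± 0.24 in PSS1-LMS and 0.16 ± 0.24 in PSS1-WT did not pass (adjusted p = 0.981 and 0.931, limma).

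**Figure D3:**
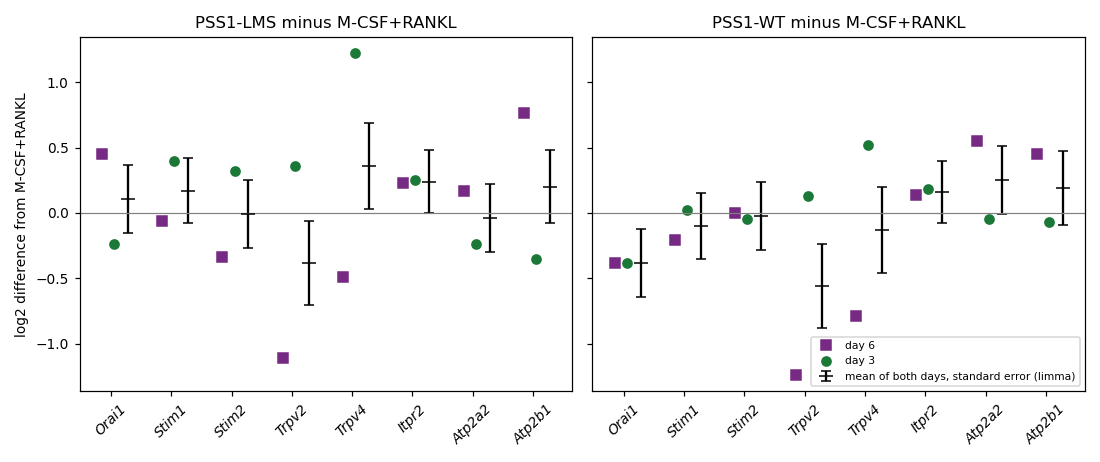
Log2 difference from the M-CSF+RANKL array of the same day (vertical axis) for each gene, PSS1-LMS on the left and PSS1-WT on the right; squares are day 6, circles day 3, and bars the limma mean of both days with its standard error. Trpv2 lies more than 1 log2 unit under 0 in both PSS1 cultures on day 6 and slightly over 0 on day 3, and no mean passed the test.

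The sequences just upstream of the genes were looked up in RefSeq (GRCm38.p6), where 7 of the 8 genes had promoter entries, 10 in all. The 3 shown are those of Orai1, lower with RANKL on both days, of its sensor partner Stim2, which passed no RANKL test, and of Trpv2, which was higher on day 3. Each runs 5′ to 3′ on the plus strand over the 250 bases before the annotated start, and capitals mark a GC box (GGGCGG, the motif bound by Sp1 family factors, or its reverse complement) or the PU.1 motif GAGGAA. Orai1 lies at chr5:123014824-123015073, Stim2 at chr5:53998273-53998522 and Trpv2, first of 3 annotated starts, at chr11:62574236-62574485.
Orai1: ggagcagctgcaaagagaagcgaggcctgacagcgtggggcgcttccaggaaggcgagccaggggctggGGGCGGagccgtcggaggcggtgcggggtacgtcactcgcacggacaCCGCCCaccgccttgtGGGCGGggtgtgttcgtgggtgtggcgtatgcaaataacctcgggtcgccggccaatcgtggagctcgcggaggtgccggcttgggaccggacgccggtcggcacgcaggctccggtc
Stim2: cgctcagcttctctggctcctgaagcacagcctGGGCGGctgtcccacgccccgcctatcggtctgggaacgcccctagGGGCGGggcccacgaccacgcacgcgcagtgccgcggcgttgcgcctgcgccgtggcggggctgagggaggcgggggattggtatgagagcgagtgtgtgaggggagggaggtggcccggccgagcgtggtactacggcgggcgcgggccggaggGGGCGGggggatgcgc
Trpv2: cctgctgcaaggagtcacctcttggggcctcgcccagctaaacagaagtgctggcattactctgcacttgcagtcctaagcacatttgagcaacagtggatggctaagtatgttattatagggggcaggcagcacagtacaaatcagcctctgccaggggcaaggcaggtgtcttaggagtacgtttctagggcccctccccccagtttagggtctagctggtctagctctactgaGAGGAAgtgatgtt

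A GC box on either strand was present for 6 of the 7 genes, all but Trpv2. Counted by promoter entry, it was in 7 of the 10 entries of these genes and in 32.7% of the 32851 RefSeq mouse promoters of this length. GC content was 70.8% to 80.8% for the promoters of those 6 genes and 53.2% for the Trpv2 promoter shown, with a median of 52.4% over all promoters. The PU.1 motif was found for Trpv2 alone of the 7, in entries 1 and 2 of its 3. It lay from base -14 to -9 before the start shown, and 23.3% of all promoters held it. PU.1 is a transcription factor of macrophages and osteoclasts. None of the 7 held the NFAT core GGAAAA (20.4% of all promoters), which shares the letters GGAA with the PU.1 motif, the AP-1 motif TGANTCA (6.75%), the E-box CACGTG (6.02%) or TATAAA (12.4%). These are matches of letters in a short window and no measure of binding.

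Other genes of calcium handling were counted from lists of 94 genes, of which 86 had a cluster and 56 were tested. In M-CSF+RANKL minus M-CSF, 10 of the 56 were higher and 7 lower, against 14.1% and 12.4% of all tested genes, with a median difference of -0.20 against 0.03. The same shares are the reference for the small counts of each group below, and no group was tested against the rest. Of the 56, 6 were within background on all arrays, including 2 that passed, Orai2 and Trpm2. None of the 56 passed in the 3 PSS1 comparisons by limma.

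Among 11 tested entry channels and regulators, 2 were higher and 2 lower, with a median difference of -0.52. P2rx7, a channel opened by extracellular ATP, had signals of 5.47 to 7.07 on the arrays with RANKL, 1 of them within background, against 11.80 on day 6 and 8.70 on day 3 in M-CSF. Its difference over both days was -4.07 ± 0.86 (adjusted p = 0.0104, limma). Where the dim side was within background, a fold is a bound against the background limits of its arrays. Piezo1, a mechanically gated channel, was at least 1.91-fold higher (adjusted p = 0.0443, limma), with its M-CSF signal of day 6 within background. Orai2 and Trpm2 were past the threshold on signals within background on all arrays.

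Among 16 tested release channels and regulators, 2 were higher and 0 lower by limma, with a median of -0.26. Plcb2, a phospholipase that makes inositol trisphosphate, had signals of 12.05 to 12.57 with RANKL, against 7.29 on day 6 and 8.34 on day 3 in M-CSF. Its difference was 4.56 ± 0.40 (adjusted p = 0.00015, limma), 23.6-fold. Plcb4, of the same family, was at least 3.86-fold higher (adjusted p = 0.000309, limma), with both M-CSF signals within background. The 2 genes of this group called over both days are enzymes upstream of the receptors and not release channels. In the single-day fits some release channels did pass, such as Tpcn1 at 1.30 on day 3 and -2.32 on day 6.

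Among 8 tested pumps and exchangers 1 was higher and 3 lower, with a median of -1.0. Slc8b1, the sodium-calcium exchanger of mitochondria, had signals of 6.38 to 7.31 with RANKL, against 10.48 on day 6 and 9.65 on day 3 in M-CSF (-3.16 ± 0.30, adjusted p = 0.000242, limma). Slc8a1, a sodium-calcium exchanger of the plasma membrane, was within background on all 6 arrays with RANKL, at 4.19 to 4.82, against 8.02 on day 6 and 7.83 on day 3 in M-CSF, at least 4.24-fold lower in M-CSF+RANKL (adjusted p = 0.000208, limma). Tmem165, a Golgi membrane transporter, was lower (-1.26 ± 0.33, adjusted p = 0.0266, limma). Atp2c1, the calcium and manganese pump of the Golgi, was higher, at 10.82 to 12.01 with RANKL, against 10.01 on day 6 and 9.37 on day 3 in M-CSF (2.05 ± 0.28, adjusted p = 0.00136, limma).

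Among 8 tested genes of mitochondrial uptake 3 were higher and 0 lower by limma, with a median of 0.40. They were the outer membrane channels Vdac1 (2.46 ± 0.32, adjusted p = 0.00116, limma) and Vdac2 (1.18 ± 0.31, adjusted p = 0.026, limma) and the inner membrane protein Letm1 (at least 4.21-fold, adjusted p = 0.00474, limma), whose M-CSF signal of day 6 was within background. Over both days Mcu (0.01 ± 0.30), Micu2 (0.21 ± 0.29), Smdt1 (0.42 ± 0.34) and Vdac3 (0.39 ± 0.36) did not pass. Micu3 did not pass either and was within background on all arrays. Calcium uptake itself was not measured. Among 13 tested buffers and sensors 2 were higher and 2 lower, with a median of -0.16. S100a10 and the reticulum protein Calu were higher, by 1.65 and 1.58, whereas S100a6 and the calmodulin gene Calm3 had differences of -2.88 and -1.20.

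**Figure D4:**
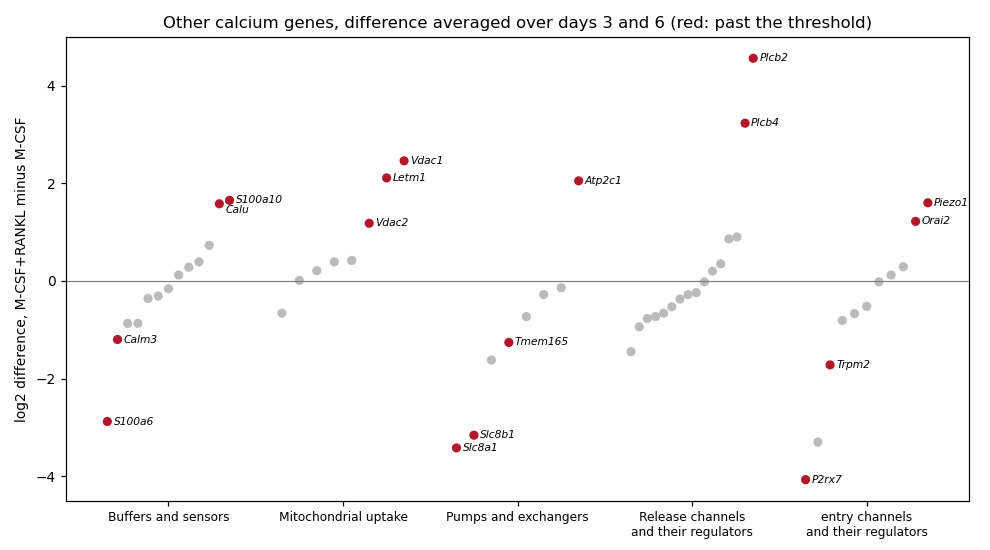
Log2 difference, M-CSF+RANKL minus M-CSF averaged over both days (vertical axis), of the 56 other calcium genes tested, with 1 point per gene, grouped by role along the horizontal axis and sorted by value. Named red points passed the limma threshold; Orai2 and Trpm2 are within background on all arrays, and Slc8a1, Plcb4, Piezo1 and Letm1 on their dim side; the red points lie on both sides of 0 among the entry, pump and buffer genes and over 0 for release and mitochondrial uptake.

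The measured genes most like each of the 8 over the 8 arrays were found by Pearson correlation, as a description. The arrays share cultures, and the r given are the highest among the measured genes. For Orai1, Stim1, Trpv4 and Atp2b1 both M-CSF arrays lay apart from the 6 arrays with RANKL. The M-CSF array of day 6 alone stood apart for Atp2a2 (11.68 against 12.94 to 13.53) and Itpr2 (9.24 against 8.05 to 8.43). For Stim2 both M-CSF arrays lay within the range with RANKL, and for Trpv2 the day 6 array did. How much of each r comes from such contrasts was not tested. Orai1 was nearest to Tor1aip1 (r = 0.986) and Cbl (0.982), and Stim2 to Klk6 (0.951), whose signals lay between 4.29 and 5.04, and Bicd2 (0.933). Trpv2 was nearest to Wdr3 (0.959) and Bckdk (0.951), Itpr2 to Dbp (0.981) and Bicral (0.980), Atp2a2 to Tiam1 (0.993) and Wdr75 (0.990), and Atp2b1 to Bmpr2 (0.983) and Micu3 (0.972). Stim1 was nearest to Arrdc1 (0.993) and Tfe3 (0.986), and Trpv4 to Tspo (0.993) and Tmem104 (0.985). Stim1, Trpv4, Klk6 and Micu3 were within background on all 8 arrays, and nothing is read from their correlations.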

How the data were processed

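Each of 8 groups was 1 Affymetrix array, for which 500 ng of total RNA was labelled, per the labels' protocols. The deposited values are log2 signals, as read from the values (1.25 to a ceiling of log2 of 1000000); the authors' summarisation and normalization are not given in the sources used here. Of 28846 features 22142 were transcript clusters, 19572 of them with 1 symbol; for 55 genes with several clusters the one with the highest mean was kept. Genes whose highest value reached 4.86, the 50th percentile, were tested (10871).

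Fits used limma 3.58.1 in R 4.3.3 (lmFit, eBayes) with Benjamini-Hochberg adjustment. The RANKL comparison had culture and day as additive terms on 8 arrays (3 residual degrees of freedom, 4.71 prior), and the PSS1 and day comparisons the same on the 6 arrays with RANKL (2 and 13.3). Single-day RANKL comparisons, the M-CSF day change and the interaction used means of RANKL state by day on 8 arrays (4 and 8.84), with a lone M-CSF array per day. Errors are spread between cultures and days; they leave out spread between animals or repeated cultures, and the number of arrays limits precision. Fits were also run on simulated arrays with independent noise, drawn from the fitted variances and equal in spread on every array of a gene. Such a run cannot check whether a lone M-CSF array varies like the cultures with RANKL.

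The 10 genes and the calcium and marker lists were chosen with earlier results of these data known. Named were all members, the 2 genes nearest each, and of the calcium lists the 3 largest rises and falls past the threshold in each group. Alternatives covered scaling, filters, variance model, background, samples in the fit, clusters per gene and each array left out.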

Additional observations from a re-analysis of the deposited data

Results flagged for a closer look

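The difference between cultures with RANKL and M-CSF changed between days for 2 of the 8 genes by the interaction term of the limma fit. For Atp2a2 the change was 1.71 ± 0.41 on the log2 scale (adjusted p = 0.0117, limma): the difference was 1.51 on day 6 and -0.20 on day 3, with the same direction in all 3 cultures on each day. For Itpr2 it was -1.18 ± 0.37 (adjusted p = 0.0424, limma): -0.92 on day 6 and 0.26 on day 3, again with the same direction in all 3 cultures, and this call was lost in 7 of 13 alternatives, with adjusted p up to 0.084. The Trpv2 interaction was larger, at -1.68 ± 0.58, and missed the threshold (adjusted p = 0.0584, limma), passing in 3 of 13 alternatives. The Atp2a2 and Itpr2 values rest on the 2 single M-CSF arrays, with the spread taken from the cultures with RANKL. The 3 cultures of a day are set against the same M-CSF array, so their shared direction is no independent support. The 2 M-CSF arrays were 1.85 apart for Atp2a2 and 1.20 apart for Itpr2. The interaction passed for 19.7% of all tested genes.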

How the results depend on the processing

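The 8 genes had 998 values under another setting or with an array left out. Of these, 947 kept their call or lack of one, 38 lost a call and 13 gained one. Most of the 998 had no call in the main fit and so none to lose. Stim1 over both days kept its call in 5 of 16 alternatives, and the Itpr2 interaction in 6 of 13. Among called values 0 turned sign, and 50 did that were uncalled on both sides. Counts over all genes moved more. For PSS1-LMS minus M-CSF+RANKL, 19 genes passed, against 1 after quantile normalization, 2 without a filter, 33 with a filter at the background limit, 48 with eBayes trend and robust, 56 with values raised to the background limit and 1 with all 8 arrays. For PSS1-WT minus M-CSF+RANKL, 1 passed, against 2 with the background filter, 2 with trend and robust and 8 with raised values. For PSS1-LMS minus PSS1-WT, 0 passed, against 2, 7 and 31 under those 3 settings. For day 6 minus day 3 with RANKL, 367 passed, against 230 without a filter and 31 with all 8 arrays. The cause was not tested. On day 6 the RANKL cultures differed from M-CSF in 4740 genes (2387 higher, 2353 lower), against 7303 with raised values (1882 higher, 5421 lower), where by construction dim genes take the limits themselves, 7.13 in M-CSF and 5.54 to 6.26 with RANKL. Leaving out each array in turn gave 1198 to 4545 genes for RANKL over both days (2875 with all arrays), 11 to 83 for PSS1-LMS, 3 to 61 for PSS1-WT, 0 to 48 between them, 270 to 678 for day with RANKL, 4497 to 4740 for RANKL on day 6, 4128 to 4839 on day 3, 2237 to 2827 for day in M-CSF and 1695 to 2361 for the interaction. Without an M-CSF array, that day's difference, the M-CSF day change and the interaction could not be fitted. For Stim1 and Trpv4, raised values carry only the difference between the arrays' limits. No paired analysis was possible because each group was 1 array with no replicate numbers to pair; the additive fits compare cultures within days.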

Other observations

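The RANKL difference changed between days for 10 of the 56 other calcium genes tested (3 higher, 7 lower), or 17.9%, against 19.7% of all tested genes, so the count does not set them apart. The 3 named here were chosen after their values were seen, and their M-CSF side is 1 array per day. P2rx4, an ATP-gated channel, had signals of 6.08 to 6.99 with RANKL, against 12.35 on day 6 and 7.70 on day 3 in M-CSF. The P2rx4 difference was -5.72 ± 0.38 on day 6 and -1.10 ± 0.38 on day 3, an interaction of -4.62 ± 0.54 (adjusted p = 0.000167, limma). Orai3, a relative of Orai1, passed in opposite directions on the 2 days, at -1.05 ± 0.32 on day 6 (adjusted p = 0.0185, limma) and 1.49 ± 0.32 on day 3 (adjusted p = 0.00223, limma). Tpcn1, a calcium-permeable channel of endolysosomes, did likewise, at -2.32 ± 0.33 on day 6 (adjusted p = 7.81e-05, limma) and 1.30 ± 0.33 on day 3 (adjusted p = 0.0066, limma).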
